A study of Sus scrofa with 42 samples.

Results

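Single blastomeres of 1 pig (Sus scrofa) embryo made by in vitro fertilization (IVF) were compared with those of 1 embryo made by parthenogenetic activation (PA), both at the 8-cell stage. The comparison took the 3 cells labelled IVF 8-cell (1-1, 1-2 and 1-3) and the 3 cells labelled PA 8-cell (1-1, 1-2 and 1-4), 6 of the 42 cells and 2 of the 20 embryos of the series. Both embryos came from oocytes of slaughterhouse gilts matured in vitro, were cultured in the same medium (PZM-3) and were taken 72 h into development. The IVF embryo came from co-incubation of the oocytes with fresh semen. The PA embryo came from oocytes given electric pulses and then 6-dimethylaminopurine with cytochalasin B, an inhibitor of actin filaments that keeps the extruded chromosome set in the egg. The other cells of the series were IVF and PA cells of the 1-, 2- and 4-cell stages, of which the 4-cell embryos (3 of each method) are set beside the 8-cell values where stated. Each method had 1 embryo at the 8-cell stage, so the effect of the method, of the embryo and of its sex cannot be told apart, and sister blastomeres are not replicates of a method. Within the comparison, a gene was followed where the 3 values of one embryo lay above the 3 of the other.

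A fertilized embryo carries a maternal and a paternal chromosome set, whereas a parthenote carries maternal chromosomes alone. A parthenote therefore has no Y chromosome and no paternal copy of imprinted genes, which are read from only 1 parental copy. Early cleavage runs on RNA that the oocyte stored. Pig embryos switch on most of their own transcription from about the 4-cell stage, while the stored RNA is degraded, and the blastomeres that follow start to build ribosomes, junctions and the first lineage programmes.

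The values were FPKM (fragments scaled by gene length and by the number mapped), which do not correct for a cell's mix of transcripts. Levels compared between cells can therefore depend on the scaling. The reads behind the FPKM, recovered from the steps in the values, numbered between 5418140 and 14009816 on genes in the IVF cells and between 9599118 and 19119793 in the PA cells. Genes above 0 numbered 4839, 6510 and 6020 in the IVF cells and 5656, 5476 and 3481 in the PA cells, and genes at 1 FPKM or more 1760, 2334 and 2047 against 1477, 1791 and 2211. PA 8-cell-1-4 stood apart in its low values: 698 of its genes held 1 to 10 reads, against 2434 to 3340 in the other 5 cells, so a value of exactly 0 was more common in it. Thinned to 5400000 reads each, the cells held 4816, 5409 and 5166 genes (IVF) and 4067, 4732 and 3224 genes (PA). The 13 mitochondrial mRNAs took 38.6% ± 12.8 (SD, n = 3 cells) of the summed FPKM in the IVF and 41.0% ± 4.82 (SD, n = 3 cells) in the PA embryo. Their lowest share, 23.9%, belonged to IVF 8-cell-1-1, the cell with the fewest reads. None of the 13 was called, and ATP8 was listed at 0 in all 6 cells. Markers of cells that can cling to an egg were low. Of 11 cumulus and granulosa markers in the table, 1 (COL1A2) reached 1 FPKM in 1 cell, IVF 8-cell-1-3, and the summed level stayed between 0.526 and 2.55 in the IVF cells and between 0.00475 and 0.982 in the PA cells. LHCGR, INHBA, TNFAIP6 and CD44 were at 0 in all 6. Of 7 sperm and spermatid markers, ODF2 stood at 32.8 in IVF 8-cell-1-3 and ACRBP at 84.0 in PA 8-cell-1-1, while SPATA19 and CRISP2 were at 0 in all 6. The summed level of these 7 lay between 0.129 and 33.0 in the IVF and between 0.0145 and 84.2 in the PA cells.

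Few genes reached 1 FPKM in all 3 sister blastomeres. Of the 3513 tested genes that reached 1 FPKM in any IVF cell, 1937 (55.1%) did so in 1 cell, 926 in 2 and 650 (18.5%) in all 3. The PA embryo gave nearly the same picture, with 1856 (56.9%) of 3262 genes in 1 cell and 556 (17.0%) in all 3. Genes reached in 1, 2 and 3 IVF cells had a median mean level of 3.52, 15.2 and 44.8 FPKM. In the PA embryo these medians were 4.93, 17.8 and 54.5. Such a mean rises with the number of cells in part by construction. Whether transcripts were lost in amplification was not tested. Pearson's r of the log2(FPKM + 1) values over the 8116 genes tested lay between 0.444 and 0.505 for the 6 pairs of sisters and between 0.410 and 0.491 for the 9 pairs of cells from different methods. These correlations are across genes, which are not independent replicates. Spearman's rho lay between 0.451 and 0.508 for 5 of the sister pairs and between 0.420 and 0.508 for the pairs of different methods, while PA 8-cell-1-1 and 1-2 were more alike, with a rho of 0.631.

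The Y chromosome gave the plainest difference and checked the labels. Summed over the 25 Y genes in the table, the level was 326, 263 and 53.9 FPKM in the IVF cells, against 0, 0.00765 and 0 in the PA cells, where a single read accounted for the value above 0. The sums did not overlap, at 214 ± 142 (SD, n = 3 cells) against 0.00255 ± 0.00441 (SD, n = 3 cells). The same Y genes did not carry the sum in every sister. ENSSSCG00000034141 stood at 126, 243 and 0.0360, and ENSSSCG00000038249 at 114, 0 and 37.0. ENSSSCG00000012178 was above 1 FPKM in all 3 IVF cells, at 82.7, 1.33 and 16.0. EIF1AY, a translation initiation factor gene, was at 1.60 and 17.6 in IVF 8-cell-1-1 and 1-2 and at 0 in IVF 8-cell-1-3.

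Of 8116 genes with at least 1 FPKM in at least 3 of the 42 cells of the series, 477 (5.88%) had all 3 IVF values above all 3 PA values and 233 (2.87%) the reverse. A gene is named as called from here on where, in addition, the mean log2(FPKM + 1) of the embryos differed by at least 1, a 2-fold limit. There were 279 genes called higher in the IVF embryo (3.44%) and 186 called higher in the PA embryo (2.29%). Without PA 8-cell-1-1 there were 392 of each, so the excess of IVF genes was not seen without that cell. Over all genes tested the median difference was 0.00 on the log2 scale, and 746 of them were at 0 in all 6 cells. Called genes were mostly under 1 FPKM on the low side: in 217 of the 279 every PA value was, and in 119 of the 186 every IVF value was. Fewer were at 0 in all 3 cells of the lower embryo, 50 of the 279 and 18 of the 186. In many, 1 sister carried the level, since the 3 values of the higher embryo spanned over 10-fold in 192 and 115 genes, respectively. Genes whose 3 higher values all reached 1 FPKM numbered 116 (1.43%) for IVF and 95 (1.17%) for PA, and this narrower count, chosen after seeing the data, is given beside the lists with called members. Of the 4537 tested genes that reached 1 FPKM in any of the 6 cells, the called genes made up 6.15% (IVF) and 4.10% (PA). Differences are on the log2(FPKM + 1) scale, which understates the change of low genes. No p-value is attached to the cells of 1 embryo. Of the 465 called genes, 145 overlap a gene on the other strand, as do 2418 of the 8116 tested. Whether the counting used strand is not stated, so reads of such pairs cannot be told apart.

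The genes with the widest gap in favour of the IVF embryo served varied cell functions, and each was under 2 FPKM in every PA cell. BSG (basigin, a membrane glycoprotein that escorts lactate transporters to the surface; chr2:77735520-77743415, minus strand) was at 127, 115 and 59.7 FPKM in the 3 IVF cells and at 0.292, 0.209 and 0.193 in the 3 PA cells. THUMPD1, an adaptor for tRNA acetylation, was at 85.2, 42.3 and 66.9 against 0.0394, 0.0145 and 0. Both differed by about the same amount, 6.29 and 5.96 on the log2 scale, and the sisters of the IVF embryo lay close together in both. QARS (glutaminyl-tRNA synthetase, which charges tRNA with glutamine; chr13:31714188-31723159, minus strand) was at 327, 45.3 and 21.8 in the IVF cells, on 12792, 4669 and 2003 reads, and had no read in the PA cells. ADSS, which makes the precursor of AMP, was at 139, 21.0 and 174 against 0.00656, 0.133 and 0. HEY2, a transcriptional repressor downstream of Notch, was at 34.1, 34.9 and 119.6 against 0.0298, 0.0220 and 0.891. ASNA1, the ATPase that hands tail-anchored proteins to the endoplasmic reticulum, stood at 17.9, 73.0 and 65.8 against 0.0310, 0 and 0.0137. The other members of this group were lower or less even among sisters. SDAD1, needed for export of the large ribosomal subunit, was at 33.6, 28.4 and 86.4 against 0.137, 0.892 and 0.0382. C18orf25 was at 54.8, 17.1 and 11.14 against 0.00488, 0.0180 and 0. MIER1, which recruits histone deacetylases, was at 63.3, 45.5 and 20.2 against 0.119, 0.939 and 0.0916, and FAM172A at 196, 44.3 and 31.8 against 0.0210, 1.87 and 1.85. SDAD1, MIER1 and FAM172A each overlap a gene on the other strand. UPF1, the helicase of nonsense-mediated decay (chr2:58974167-59061503, minus strand), was at 81.1, 26.8 and 24.03 against 0.0393, 0.0322 and 0. The ceramide synthase gene CERS1 (chr2:58953637-58978582, plus strand) overlaps UPF1 tail to tail and had nearly the same values, 76.1, 25.4 and 22.7 against 0.0249, 0.0612 and 0, so these count as 1 signal.

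**Figure D1:**
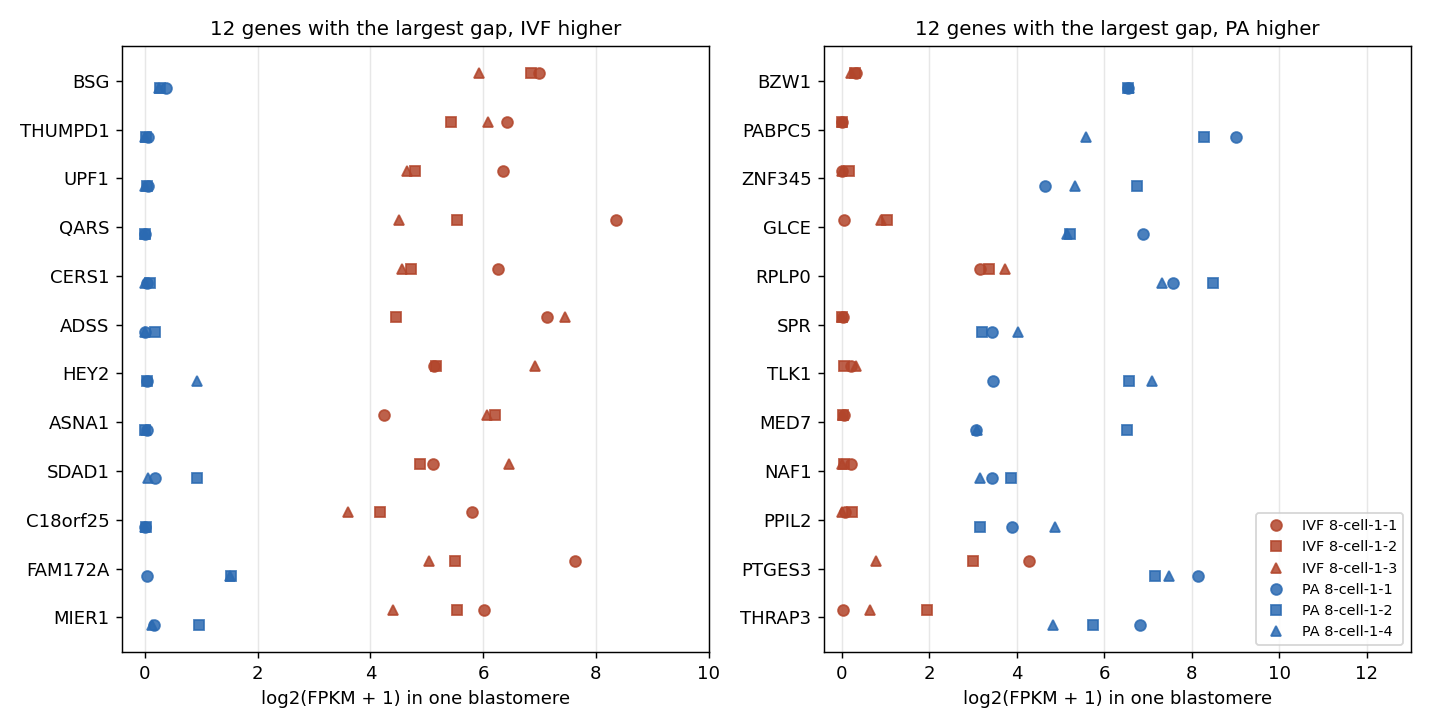
Level of the 24 called nuclear genes with the widest gap between the embryos. Each point is 1 blastomere, on a log2(FPKM + 1) axis; red symbols are the 3 IVF and blue symbols the 3 PA cells. The groups are apart in each row by construction; BZW1 has its 3 PA cells at 93.0, 93.0 and 93.3 FPKM, and PABPC5 has its 3 IVF cells at 0.

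In the PA embryo the widest gap belonged to BZW1, a regulator of start codon choice in translation (chr15:104525887-104545785, plus strand). It was at 93.0, 93.0 and 93.3 FPKM in the PA cells and at 0.256, 0.230 and 0.155 in the IVF cells, so the sisters lay close together in both embryos. PABPC5, an X-linked gene for a poly(A)-binding protein (chrX:74142589-74145900, plus strand), was at 514, 313 and 46.9 in the PA cells, on 59551, 19670 and 4109 reads, and had no read in the IVF cells. Its level differed over 10-fold among the PA sisters, yet none of them came near the IVF cells. ZNF345, a zinc finger gene, was at 24.2, 107 and 39.2 against 0, 0.129 and 0. GLCE, an epimerase of heparan sulfate synthesis, was at 118, 36.3 and 34.7 against 0.0371, 1.06 and 0.853. RPLP0, the base of the ribosomal stalk, was at 189, 359 and 158 against 8.00, 9.32 and 12.4, and was thus expressed in all 6 cells. TLK1, a kinase of chromatin assembly, was at 9.97, 94.1 and 136 against 0.166, 0.0315 and 0.265. MED7, a Mediator subunit, was at 7.46, 90.6 and 7.56 against 0.0464, 0.0176 and 0.0197. NAF1, an assembly factor of small nucleolar ribonucleoproteins, was at 9.82, 13.6 and 7.90 against 0.154, 0.0389 and 0. These 3 genes had 0 to 15 reads in each IVF cell and 408 to 8678 reads in each PA cell. PTGES3 (p23, a cochaperone of HSP90) was at 284, 143 and 178 against 18.3, 7.08 and 0.717. THRAP3, a splicing factor, was at 111, 52.8 and 27.3 against 0.0159, 2.87 and 0.581. SPR, an enzyme of tetrahydrobiopterin synthesis, was at 9.76, 8.25 and 15.5 against 0.0239, 0 and 0, and PPIL2, a ubiquitin ligase with a cyclophilin domain, at 13.7, 7.98 and 28.4 against 0.0593, 0.180 and 0.00630. THRAP3 and PPIL2 each overlap a gene on the other strand.

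Of the 12 most abundant called genes, 6 in each direction, most were expressed in both embryos. CDV3, the most abundant called gene, stood at 19437, 9232 and 10509 FPKM in the IVF cells and 1981, 2382 and 7306 in the PA cells, a difference of 1.92. A pair of genes at the EEF1A1 locus, which encodes the elongation factor that brings tRNA to the ribosome, was higher in the IVF embryo. ENSSSCG00000037674 (chr1:92423745-92424727, minus strand) was at 23540.0, 6537 and 3057 against 2309, 1477 and 1780.0. ENSSSCG00000004489 (chr1:92421230-92472785, plus strand) was at 5301, 1514 and 717 against 514, 331 and 419. The RefSeq EEF1A1 gene lies on the plus strand and spans the whole of the former, so these too count as 1 signal. RACK1, a scaffold on the small ribosomal subunit, was at 1519, 781 and 421 against 255, 344 and 222. ING3, a subunit of a histone acetylase complex, was at 575, 264 and 572 against 193, 1.18 and 68.2. ENSSSCG00000035376, which lies inside the RefSeq gene VAMP3 for a vesicle fusion protein, was at 313, 15.8 and 1163 against 0.209, 5.89 and 0.368. On the PA side, DDX17, an RNA helicase, was at 1198, 647 and 512 against 422, 363 and 182 in the IVF cells. ELL2, an elongation factor of RNA polymerase II, was at 912, 641 and 731 against 419, 251 and 273. STYX, a catalytically dead phosphatase, was at 601, 522 and 273 against 214, 199.95 and 99.6. These 3 differed by -1.28 to -1.44, little more than the limit. GPBP1L1 was at 369, 1297 and 393 against 176, 169.6 and 0.414. SEPTIN11, a filament-forming GTPase, was at 236, 554 and 158 against 39.9, 0.732 and 158, where the lowest PA and the highest IVF cell were parted by 0.01 on the log2 scale. Under median-ratio scaling CDV3 and ENSSSCG00000035376 stayed apart, while the other 10 of the 12 most abundant called genes, NRAS included, overlapped.

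By number, cytosolic ribosomal protein and ribosome biogenesis genes were among the lists with the most called members. Of 60 cytosolic ribosomal protein genes tested, 7 (11.7%) were called higher in the IVF and 2 (3.33%) in the PA embryo, against 3.44% and 2.29% of all genes, and 6 and 2 of them had all higher values at 1 FPKM or more. The list's median difference was 0.07. RPL30 was at 46.7, 36.8 and 39.99 against 7.67, 12.1 and 8.76, and RPL7A at 55.4, 56.6 and 27.2 against 2.46, 13.01 and 7.05. The large subunit gene RPL3 was at 27.8, 9.40 and 39.0 against 7.66, 0.215 and 0.148, and RPL14, RPS29 and RPS2 were also called. On the other side, RPL11, which can also bind the p53 regulator MDM2, was at 58.3, 37.0 and 41.8 in the PA cells against 7.07, 13.1 and 26.1, next to RPLP0 above. Of the 7, 2 remained without the genes that overlap another on the opposite strand, and ribosomal protein genes have processed copies elsewhere in the genome whose reads may be shared. Of 90 ribosome biogenesis genes, 7 (7.78%) were called higher in the IVF embryo and 1 (1.11%) in the PA embryo, 6 and 1 under the narrower count, with a median of 0.21. Of the 82 of these that reached 1 FPKM in any of the 6 cells the shares were 8.54% and 1.22%, against 6.15% and 4.10% of all such genes. PWP1 was at 5.40, 19.004 and 17.6 and GNL3 (nucleostemin) at 51.6, 2.10 and 10.3, and neither had a read in the PA cells. MPHOSPH10, of the small subunit processome, was at 170.5, 158 and 106 against 8.29, 0.153 and 45.0. UTP11, RRP12 and EXOSC9 completed the 7 with SDAD1, and 3 of the 7 remained without genes overlapping on the other strand. FBL (fibrillarin, the methylase of ribosomal RNA) went the other way, at 36.5, 137 and 96.1 in the PA against 5.65, 1.01 and 22.8 in the IVF cells. Of 48 genes for tRNA synthetases and tRNA modification, 3 (6.25%) were called higher in the IVF and 1 (2.08%) in the PA embryo, 2 and 1 under the narrower count. Beside QARS, DARS (aspartyl-tRNA synthetase) was at 44.9, 72.9 and 3.80 against 0.0499, 0.0920 and 0.132. ADAT1, a tRNA deaminase, was at 1.38, 6.77 and 0.0131 against 0 in the PA cells, while TRMT6, of the tRNA methylase complex, was at 4.36, 45.1 and 31.5 in the PA against 0.600, 0.0130 and 1.73 in the IVF cells.

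Among the pluripotency factors, 1 of 16 tested (6.25%) was called higher in the IVF and 3 (18.8%) in the PA embryo, against 3.44% and 2.29% of all genes. The 4 genes are known regulators of early lineages. KLF5, a factor of the trophectoderm and the inner cell mass, was at 137, 54.9 and 104 FPKM against 45.7, 0.245 and 0. NANOG, which marks the epiblast, was at 79.2, 47.6 and 75.1 in the PA cells and at 32.6, 0.124 and 0.0464 in the IVF cells. In both genes 1 cell of the lower embryo expressed it at a level not far from the other embryo. TBX3 was at 60.1, 3.98 and 1.35 in the PA cells against 0, 1.02 and 0.0785. OTX2 was at 34.7 in PA 8-cell-1-4 and at 0.193 or less in the other 5 cells, so 2 of the 3 PA genes held under the narrower count. Under median-ratio scaling 1 of the 4 stayed called. KLF4, KLF17, SALL4, NR5A2, ESRRB and TFAP2C overlapped between the embryos, with KLF17 at 2.15, 116 and 0 against 1.505, 125 and 0.0579, and SOX2 was at 0 in all 6 cells. None of 15 trophectoderm, Hippo and polarity genes and none of 16 genome activation genes was called. YAP1, the effector of Hippo signalling, was at 19.4, 56.0 and 23.6 in the IVF and 78.0, 192 and 50.9 in the PA cells, and GATA3 at 103 in IVF 8-cell-1-3 and at 0.0129 or less in the other 5. Of 18 adhesion and junction genes 2 were called, both higher in the IVF embryo, and 1 of them held under the narrower count, against 279 of 8116 genes overall. CTNNB1 (beta-catenin, which links cadherins to actin) was at 2.92, 10.1 and 30.8 against 0.0225, 0.0138 and 0. ITGA6, a laminin receptor subunit, was at 91.4, 2.99 and 0.0650 against 0.0263, 0.0161 and 0.

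In signalling and the respiratory chain, few genes were called, most of them on the PA side. Of 58 genes of Ras, Rap1 and insulin signalling, 4 (6.90%) were higher in the PA and 1 (1.72%) in the IVF embryo, 3 and 0 under the narrower count, against 2.29% and 3.44% of all genes, with a median of 0.00. NRAS, a small GTPase, was at 537, 349 and 264 in the PA cells against 188, 41.5 and 27.7. PIK3R1, the regulatory subunit of PI3-kinase, was at 47.97, 63.6 and 142 in the PA against 0.627, 19.2 and 26.6. The kinase gene BRAF also passed, with 1, 6 and 1 reads in the IVF cells and 9, 1070 and 500 in the PA cells. The one IVF gene, SOS1, an activator of Ras, was at 13.5 in IVF 8-cell-1-2 and at 0.0954 or less in the other 5. Of 24 genes of BMP, SMAD and TGF-beta signalling, SMAD5 was called, at 7.92, 145 and 117 in the PA against 0.494, 0.327 and 0.625 in the IVF cells, and also under the narrower count. It encodes a factor that carries the BMP signal to the nucleus. Of 47 nuclear-encoded respiratory chain genes, 4 (8.51%) were higher in the PA and none in the IVF embryo, 3 of the 4 under the narrower count, with a median of 0.00. NDUFA4 (6.56, 13.5 and 29.0 in the PA against 0, 0.250 and 0) and the complex I gene NDUFA13 (11.06, 11.002 and 34.6 against 0.391, 3.94 and 0) were apart by a wide gap. COX6A1, of complex IV, was at 43.2, 23.3 and 42.3 against 6.80, 10.1 and 14.9. NDUFS4, also of complex I, was at 28.8 and 27.8 in PA 8-cell-1-1 and 1-2 but at 0.0883 in PA 8-cell-1-4. Of 33 genes of glycolysis, pyruvate and the TCA cycle, MDH2 alone was called, at 154 in IVF 8-cell-1-1 and at 0.0534 and 1.41 in its sisters against 0.0483 or less, so it was not counted under the narrower rule.

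The heat shock and ubiquitin lists had called members in both directions, and the S-phase and p53 lists had 1 or none. Of 71 heat shock and cochaperone genes, 3 (4.23%) were higher in the IVF and 4 (5.63%) in the PA embryo, 3 and 1 under the narrower count. GRPEL1, a mitochondrial cochaperone, was at 11.51, 41.0 and 195 against 0, 0 and 0.294. CCT2, a subunit of the chaperonin that folds actin and tubulin, was at 23.4, 42.9 and 91.0 against 2.90, 5.93 and 0.403, and CHORDC1 at 12.7, 36.4 and 15.9 against 0.1496, 6.84 and 10.4. The PA genes other than PTGES3 rested on 1 or 2 sisters, as in DNAJC21, at 0.289, 404 and 1.55 against 0.126, 0.216 and 0.269, FKBP4 and DNAJC1. Of 81 ubiquitin conjugating enzymes and ligases, 3 (3.70%) and 4 (4.94%) were called, 0 and 1 under the narrower count, where all genes gave 3.44% and 2.29%. In the IVF genes UBE2D1, ANAPC1 and UBE2E3, 1 cell each held 75.7, 57.2 and 85.9 FPKM and the sisters 0.340 or less. UBE2V1, a partner in K63-linked chains, was at 178, 37.4 and 50.3 in the PA cells against 31.7, 6.31 and 1.15. UBE2C, the cullins CUL2 and CUL4B and UBE2V1 were the PA genes, and CUL4B stood at 377, 0.243 and 48.01 against 0.142, 0.121 and 0.0980. Of 40 S-phase genes 1 was called, MCM6, a subunit of the replicative helicase, at 12.2, 37.7 and 30.8 in the PA against 0.123, 0.103 and 2.82 in the IVF cells, and also under the narrower count. None of 29 p53 target and apoptosis genes was called.

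**Figure D2:**
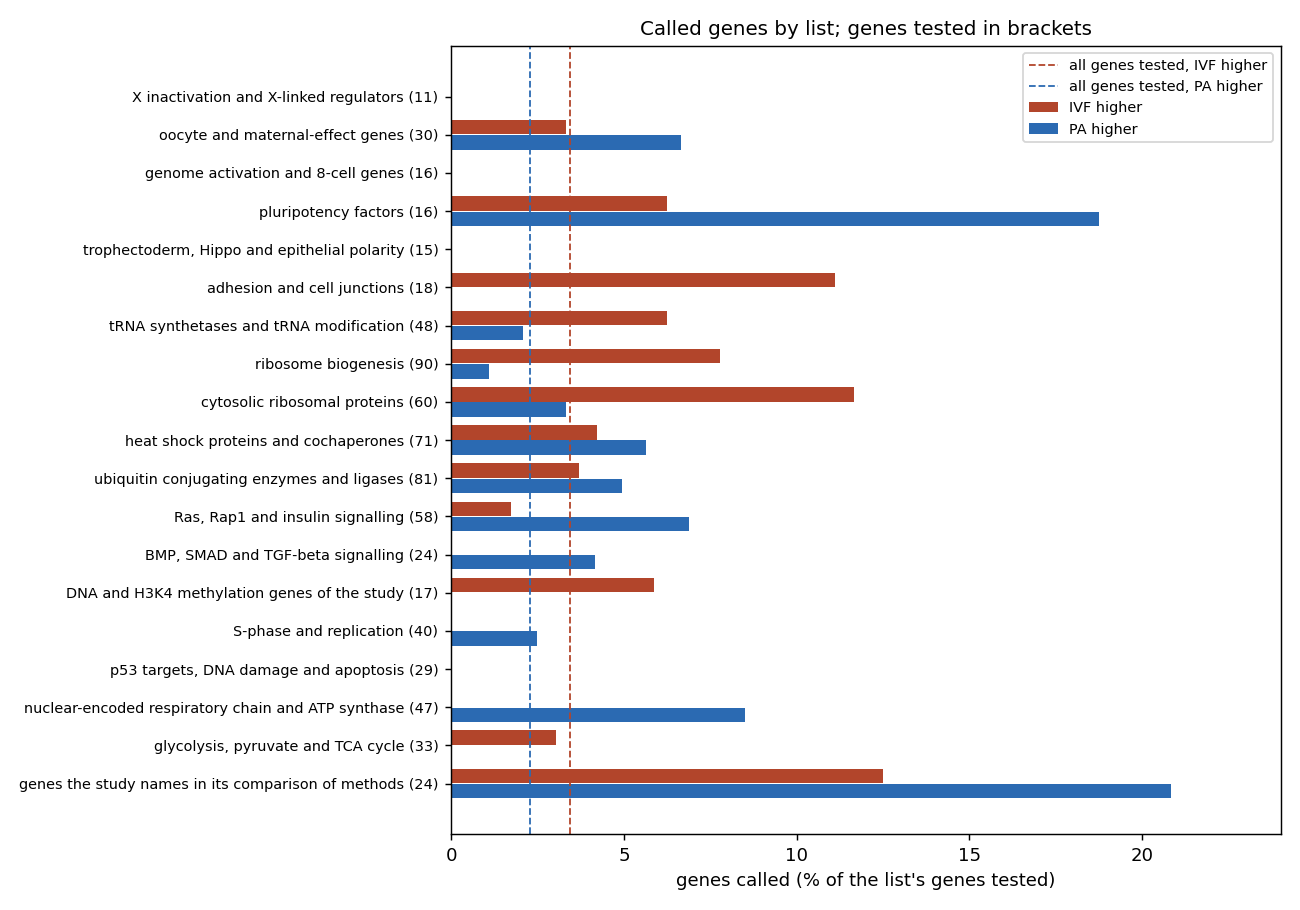
Share of called genes in each list with at least 10 genes tested, as a percentage of the list's genes tested (number in brackets). Red bars are genes higher in the IVF, blue bars genes higher in the PA embryo, and dashed lines mark 3.44% and 2.29%, the shares over all genes tested. Bars of the short lists stand for 1 to 5 genes each.

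Stored oocyte RNA is maternal in both embryos, while imprinted genes are read according to parental origin, and few genes of either kind were called. Of 30 oocyte and maternal-effect genes, 1 (3.33%) was called in the IVF and 2 (6.67%) in the PA embryo, 0 and 1 under the narrower count, against 3.44% and 2.29% of all genes. ZP4, of the egg coat, was at 195 in IVF 8-cell-1-3 and at 0.355 and 0.314 in its sisters, against 0.203, 0.187 and 0. H1FOO, the oocyte linker histone, was at 52.2 in PA 8-cell-1-4 and 2.31 or less in the other 5 cells, and WEE2, a kinase that holds the oocyte in meiosis, at 4.56, 1.15 and 18.6 in the PA against 0.495, 1.09 and 0.505. GDF9, BMP15, ZP2 and BTG4 overlapped between the embryos. Of 12 genes in the table that are listed as read from the paternal copy, 8 were tested and 1 (12.5%) was called higher in the IVF embryo, and 0 under the narrower count. PLAGL1, a zinc finger gene, was at 31.2 in IVF 8-cell-1-3 and at 0.0390 and 0.0444 in its sisters, against 0.0112, 0.0274 and 0. INPP5F (65.6 in IVF 8-cell-1-3) and IMPACT (11.6 in IVF 8-cell-1-2) also had 1 expressing cell, while PEG10 was at 12.002 in PA 8-cell-1-4 and at 0.735 or less elsewhere. PEG3, NNAT, DIRAS3 and NAP1L5 were at 0 in all 6 cells. Of 7 genes listed as read from the maternal copy, UBE3A alone reached 1 FPKM, at 4.57, 80.9 and 0.0257 against 0.0476, 64.6 and 10.8, and 5 were at 0 in all 6. Whether the genes of these lists are imprinted in pig blastomeres was not tested. Of the 17 DNA and H3K4 methylation genes followed by the study, TET2 was called, at 16.1 in IVF 8-cell-1-1 against 0.0248 and 0.0139 in its sisters and no read in the PA cells, and was not counted under the narrower rule. DNMT1, the maintenance methylase, was at 8.13, 31.9 and 83.4 in the IVF and 16.9, 24.9 and 91.3 in the PA cells, and overlapped.

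Of the 24 genes that the study named as abundant or as differing between the methods, 3 (12.5%) were called higher in the IVF embryo. In the PA embryo 5 (20.8%) were, against 3.44% and 2.29% of all genes tested, and 3 and 4 held under the narrower count. Some of the 24, such as CDV3 and PCNA, were named as abundant in both methods. The study listed EYA1 and SEPTIN11 as down-regulated at the 1-, 2- and 4-cell stages, and UBE4A at the 2-, 4- and 8-cell stages. The list was chosen on these samples and is no independent evidence of its direction. The IVF genes were CDV3, ENSSSCG00000004489 and ENSSSCG00000035376, and the PA genes PABPC5, SMAD5, MIER3, SEPTIN11 and EYA1. MIER3, a relative of MIER1, was at 32.2, 159.5 and 5.11 in the PA cells and at 0.252, 0.252 and 0.268 in the IVF cells. EYA1, a developmental cofactor and phosphatase, was at 7.22 in PA 8-cell-1-4 and at 0.142 or less in the other 5, so it stood just inside the limit. UBE4A, a ubiquitin chain elongating ligase, was at 17.3, 188 and 0 in the PA against 0.0812, 0.0308 and 0.320 in the IVF cells, and PCNA, the replication clamp, at 122, 78.8 and 295 in the PA against 134, 115 and 41.4 in the IVF cells, and neither was called.

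Genes of the X chromosome were lower in the IVF embryo, by an amount that depended on the sister. Over genes with a mean of at least 1 FPKM in the 6 cells, the median difference (IVF minus PA) was -1.21 for 130 X genes and 0.20 for 4012 autosomal genes on the log2 scale, so that X genes stood at -1.41 relative to the autosomes. That relative value was below 0 in 8 of the 9 pairings of an IVF with a PA cell, from -1.44 to 0.01, and it was -0.88 without IVF 8-cell-1-3. IVF 8-cell-1-3 had 17 of the 286 tested X genes at 1 FPKM or more, 5.94%, against 23.5% of its autosomal genes. That was the lowest ratio among the 798 pairs of a cell and a chromosome in the series. In IVF 8-cell-1-1 the shares were 13.3% and 20.8%. In IVF 8-cell-1-2 they were close, at 26.6% and 26.8%. In the PA cells the X share was 20.6%, 24.5% and 24.8%, against 17.1%, 20.6% and 26.0% of autosomal genes. With the X genes divided by position into 5 bins, IVF 8-cell-1-3 held between 3.51% and 8.77%, so no single stretch carried the low share. The X genes it did hold included ENSSSCG00000035520 and CDR1, at 7726 and 1678 FPKM, within the range of the other cells. Among 286 X genes 2 (0.70%) were called higher in the IVF and 13 (4.55%) in the PA embryo, against 3.44% and 2.29% of all genes tested. Beside PABPC5 and CUL4B, and chosen after their values were seen, STAG2, a cohesin subunit, was at 122, 109 and 134 in the PA against 11.8, 67.0 and 0.0171 in the IVF cells, and OGT, which attaches N-acetylglucosamine to proteins, at 2.96, 10.2 and 23.8 against 0.522, 0.0424 and 0. None of 11 X-linked regulators was called: EIF1AX was at 97.4, 80.4 and 0.00931 in the IVF against 1.55, 68.7 and 38.4 in the PA cells, and RLIM at 3.91, 1.73 and 0.00521 against 0.0973 or less. In 40 X genes expressed in at least 9 of the 18 4-cell blastomeres the value relative to the autosomes was -0.33.

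**Figure D3:**
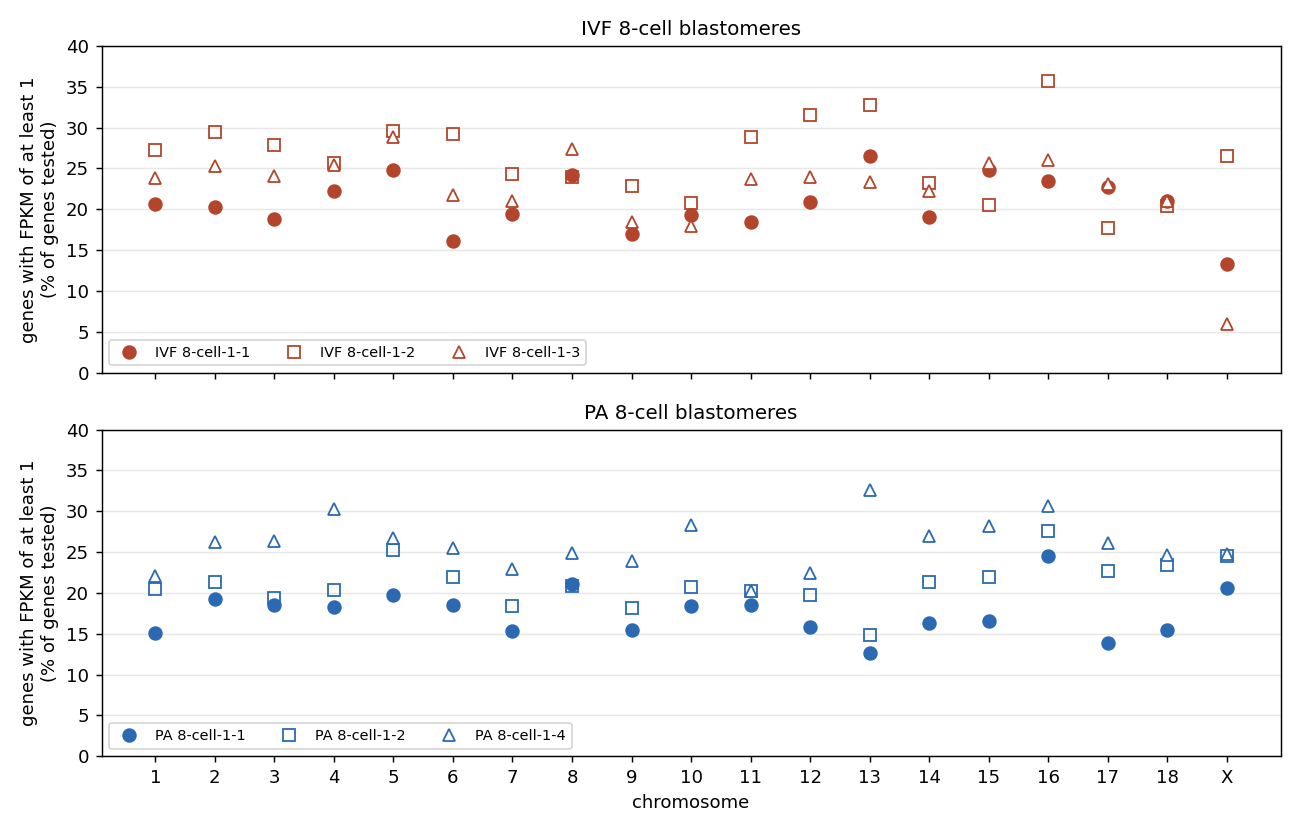
Share of tested genes with at least 1 FPKM on each autosome and the X chromosome, 1 symbol per blastomere, IVF cells above and PA cells below, both axes from 0 to 40%. IVF 8-cell-1-3 drops to 5.94% on the X, and PA 8-cell-1-1 and 1-2 drop to 12.7% and 14.9% on chromosome 13 where PA 8-cell-1-4 stands at 32.7%.

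Chromosome 13 departed in the opposite direction. Its median difference was 0.97, the highest of the autosomes, which ranged from -0.34 for chromosome 16. Of its 591 tested genes, 157, 194 and 138 reached 1 FPKM in the IVF cells, and 75, 88 and 193 in the PA cells. The shares were low in PA 8-cell-1-1 and 1-2 (12.7% and 14.9%, against 17.1% and 20.6% of all autosomal genes), while PA 8-cell-1-4 had 32.7% against 26.0%. They were high in IVF 8-cell-1-1 and 1-2 (26.6% and 32.8%, against 20.8% and 26.8%), and IVF 8-cell-1-3 had 23.4% against 23.5%. In 5 bins along the chromosome, PA 8-cell-1-1 stayed between 9.32% and 16.9% and PA 8-cell-1-2 between 13.6% and 17.6%. Relative to the autosomes, these 2 cells ranked 14 and 12 from the lowest among the 798 pairs of a cell and a chromosome. Other pairs lay lower: chromosome 17 in IVF 8-cell-1-2 ranked 7 (17.6% against 26.8%), and chromosome 13 in PA 4-cell-3-4 ranked 4. Among chromosome 13 genes, 23 (3.89%) were called in the IVF and 7 (1.18%) in the PA embryo, against 3.44% and 2.29% of all genes tested. Without the genes of chromosomes X, Y and 13, 252 and 166 genes stayed called.

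To set the 8-cell difference against a spread between embryos, embryo means of all 20 embryos were fitted with limma, the lone 8-cell embryos being assumed to vary like the others. With adjusted p below 0.05 and a 2-fold change, 147 genes (1.81%) passed as higher in the IVF and 150 (1.85%) as higher in the PA 8-cell embryo. Of these, 46 and 23 were also apart cell by cell, and in 85 and 100 of them 1 blastomere held over 90% of the embryo's summed FPKM. The genes named here were taken from those called at this stage, so their adjusted p-values give no independent support and are left out. PABPC5 differed by -8.19 ± 0.68 (SE), ASNA1 by 5.71 ± 0.54 (SE), QARS by 7.05 ± 1.15 (SE) and SMAD5 by -5.94 ± 0.86 (SE), and these 4 passed. THUMPD1, RPLP0 and CDV3, though apart in all 6 cells, did not pass. The counts of 147 and 150 moved between 33 and 602 (IVF higher) and between 26 and 683 (PA higher) over the settings tried.

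The 4-cell embryos, whose values the overlap calls at the 8-cell stage did not use, were compared in the same ways. Of the 18 4-cell cells, PA 4-cell-1-4 and 2-1 nearly repeated the values of PA 2-cell-1-2 and 2-1 (Pearson's r across the 8116 genes of 0.999 for both pairs, against 0.424 to 0.456 for the best match of the other 7 PA 4-cell cells), so values without these cells are given too. In the same fit 34 genes (0.419%) passed as higher in the 3 IVF and 11 (0.136%) as higher in the 3 PA 4-cell embryos, and 304 and 26 passed without the repeating cells. Of the genes called at the 8-cell stage 1 was among the 34 and none among the 11. By overlap of embryo means and the 2-fold limit, the IVF 4-cell embryos had 616 genes higher and the PA embryos 162, or 1184 and 87 without the repeating cells. Of the genes called at the 8-cell stage, 31 of the 279 IVF genes (11.11%) were also higher in the IVF 4-cell embryos, against 7.59% of all genes tested. Of the 186 PA genes, 5 (2.69%) were higher in the PA 4-cell embryos, against 2.00% of all genes tested. More of them, 14 (7.53%), were higher in the IVF 4-cell embryos, against 7.59% of all genes tested. Of the 279 IVF genes, 5 (1.79%) were higher in the PA 4-cell embryos, against 2.00%. Without the repeating cells, the shares in the same direction were 22.9% against 14.6% for IVF and 1.08% against 1.07% for PA. BSG went the other way at this stage, at 0.308, 2.60 and 0.264 in the IVF against 6.13, 18.8 and 7.59 in the PA 4-cell embryos. QARS was under 0.1 in all 6 of those embryos and PABPC5 at 0.3804 or less, so neither was at a clear level there. BZW1 was at 13.7, 104 and 23.3 in the IVF against 27.1, 11.54 and 31.2 in the PA 4-cell embryos, which overlapped. DNAJC21 was higher in the IVF 4-cell embryos (71.8, 89.8 and 57.0 against 6.07, 3.82 and 2.41), opposite to its 8-cell difference, which rested on PA 8-cell-1-2. Its limma adjusted p at the 4-cell stage was 0.0426, 0.00470 without the repeating cells and 0.776 with only 4- and 8-cell embryos in the fit. Without the repeating cells the PA 4-cell embryos had DNAJC21 at 0.136, 2.67 and 2.41 and BSG at 9.06, 22.7 and 7.59. BZW1 was then at 40.5, 6.48 and 31.2 in them and still overlapped.

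**Figure D4:**
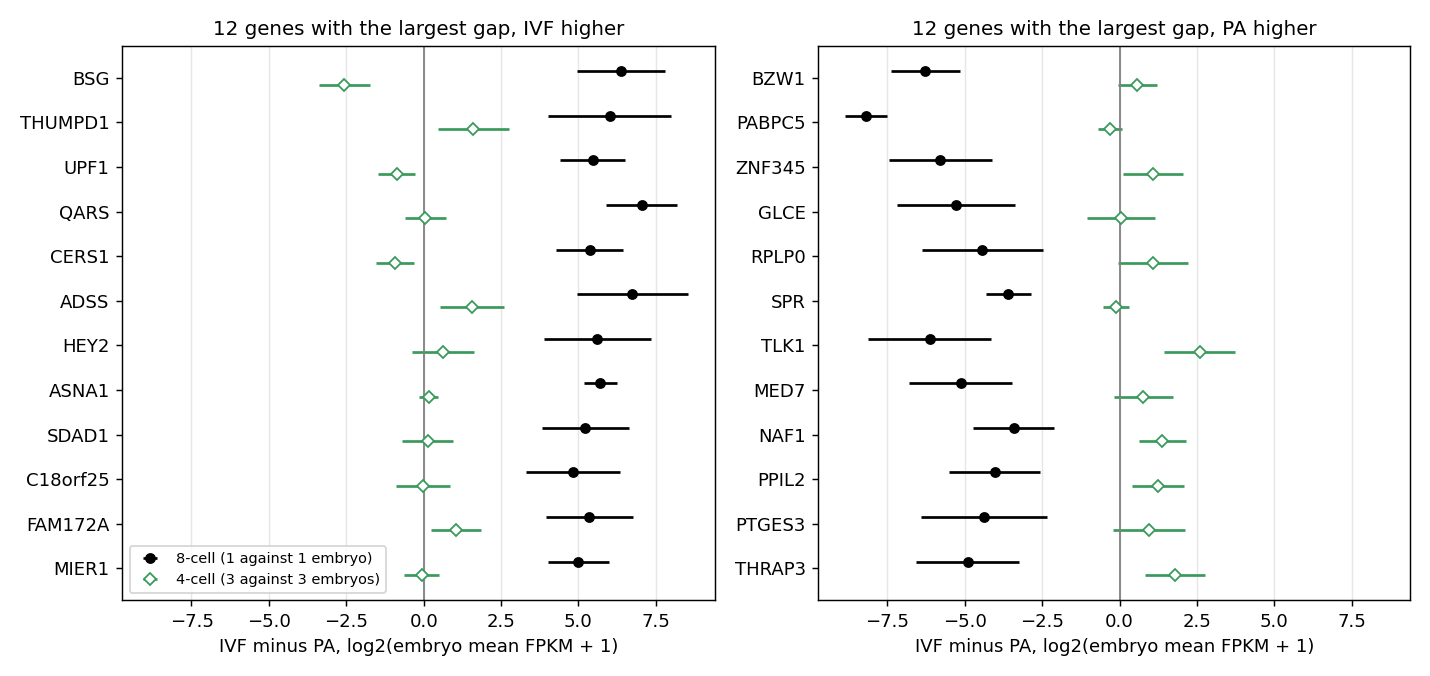
IVF minus PA difference of the 24 leading genes on the log2(embryo mean FPKM + 1) scale, at the 8-cell stage (filled circles) and the 4-cell stage (open diamonds); bars are limma's standard errors. The 8-cell differences lie between -8.19 and 7.05, whereas the 4-cell differences lie between -2.56 and 2.59 and share the sign of the 8-cell difference in 9 of the 24 genes.

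At the 2-fold limit the calls rested on low values. Just inside it stood JARID2 (0.247, 0.138 and 4.74 in the IVF against 0.0112, 0.00686 and 0 in the PA cells), METTL14 and HNRNPUL1, with differences of 1.00 to 1.01, and on the PA side HLTF, EYA1 and ZNF197. Just outside it stood PLEKHB2, BBX and USP45 (0.95 to 0.99), and KDM2B, BAG3 and HIPK3 on the PA side. Of these, HIPK3 alone was well expressed in all 6 cells, at 258, 166 and 129 in the PA against 62.9, 89.1 and 125 in the IVF cells.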

How the data were processed

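Per the study's methods, single-blastomere RNA-seq libraries had been amplified with Ansuper-seq (the labels' extraction text describes Trizol, oocytes and a TruSeq kit instead), sequenced as paired 150 bp reads and aligned with Hisat2 to Sscrofa11.1 (named in the submitters' processing notes too), and the authors deposited gene FPKM values; tool versions and strandedness are not given in the sources used here. Names came from the file for 12529 genes, from reference tables for 839, and 1983 had none. All 42 columns matched a sample (0 did not). Whole reads were recovered from the steps of the FPKM values for 14669 of 14692 genes (99.8%, tolerance 0.002) and used for depth. Depth bounds the low values, and FPKM of sister cells measure the spread within 1 embryo.

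Genes were kept where 3 or more of the 42 cells reached 1 FPKM. A gene was called where the 3 values of one method exceeded the 3 of the other and the mean log2(FPKM + 1) differed by at least 1. Embryo means, as log2(mean FPKM + 1), were fitted with limma 3.58.1 (R 4.3.3, trend, Benjamini-Hochberg adjustment, adjusted p below 0.05 and 2-fold) over 20 embryos and 8 groups; Python 3.11.15 did the rest. On simulated data for the 8-cell contrast over 8116 genes, sets of 50 genes were changed by a log2 of 2, 4, 6 and 8. Of these limma called 0, 6, 19 and 30, and it also called 2 unchanged genes. The simulated noise was normal, with 1 spread per gene shared by all 20 embryos. The 8-cell embryos thus varied like the others by construction, so these counts do not measure the error of the real 8-cell contrast. Named are the 12 called genes per direction with the widest gap, the 6 most abundant, up to 4 per list and direction, the genes the study names, Y and mitochondrial genes and those at the limit; genes not called are named as list members or, where stated, after their values were seen. The members and the 23 lists were chosen with earlier results of these data known. Other filters, pseudocounts, scalings, the replicate block and left-out blastomeres or embryos were tried as alternatives. Some called genes are not reported here.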

Additional observations from a re-analysis of the deposited data

Results flagged for a closer look

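For 16 named genes the IVF minus PA difference at the 8-cell stage departed from that at the 4-cell stage in limma's test of the difference between the stages, in which the lone 8-cell embryos are assumed to vary like the others (adjusted p between 2.1e-05 and 0.0485). Most of the genes were named for their 8-cell gap, a value this test uses. Each 8-cell arm holds 1 embryo, so these p-values are no independent support. How many of all genes tested passed the same test is not given, so the count of 16 cannot be set against a share over all genes. Without PA 4-cell-1-4 and 2-1, which repeat 2-cell cells, all 16 stayed below 0.05, with adjusted p between 2.38e-05 and 0.0499. Values are on the log2(embryo mean FPKM + 1) scale, 8-cell difference less 4-cell difference, and the method, the embryo and its sex cannot be told apart at the 8-cell stage.

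The difference moved towards IVF by 8.92 for BSG, 6.33 for UPF1, 6.997 for QARS, 6.29 for CERS1, 5.55 for ASNA1, 5.05 for MIER1 and 4.74 for the Y gene ENSSSCG00000012178. UPF1 and CERS1 overlap on opposite strands and count as 1 signal. It moved towards PA, by -6.85 for BZW1, -7.89 for PABPC5, -3.46 for SPR, -8.73 for TLK1, -6.27 for TRMT6 and -10.72 for DNAJC21. The regulators of protein turnover UBE2C and CUL4B moved by -6.51 and -7.07, and SMAD5 by -5.50. The 8-cell level of UBE2C rested mostly on PA 8-cell-1-4, at 2.80, 0.251 and 139 FPKM in the PA cells against 0, 0 and 0.101. In BSG, TLK1, TRMT6 and DNAJC21 the 2 stages had opposite signs beyond 2 log2 units, with 4-cell differences of -2.56, 2.59, 2.30 and 3.90. SMAD5 was expressed in all 6 of the 4-cell embryos and in the PA 8-cell embryo, and was under 1 FPKM in the 3 IVF 8-cell cells.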

How the results depend on the processing

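None of the named differences changed direction under any alternative tried. For genes called by lack of overlap, only rescaling between cells could have changed the direction. Of the 92 named calls, median-ratio scaling ended 25, a pseudocount of 5 ended 13, rescaling nuclear genes 4 and leaving out a blastomere 1 to 8. The 279 IVF-higher genes became 174 at a 4-fold limit and 116 with every higher value at 1 FPKM or more, and the 186 PA-higher genes 95 under the latter. Leaving out a blastomere gave 383 to 564 and 277 to 392, since fewer values could overlap. The 147 and 150 genes of the limma 8-cell contrast became 33 and 49 with FPKM of at least 5, 46 and 26 with means of log2 values, 602 and 683 with median-ratio scaling, 436 and 389 with no filter, 97 (IVF) with nuclear genes rescaled, 94 and 57 with only 4- and 8-cell embryos, 92 and 90 with a pseudocount of 0.1 and 249 and 280 with one of 5, and 151 to 251 and 158 to 274 without one 4-cell embryo, the highest of both without IVF embryo 2. The 34 IVF-higher genes of the 4-cell contrast became 52 with FPKM of at least 5, 9 with means of log2 values, 93 with median-ratio scaling and 304 without PA 4-cell-1-4 and 2-1, and ran from 5 without PA embryo 3 to 366 without IVF embryo 1. The 11 PA-higher genes became 6 with means of log2 values, 274 with median-ratio scaling, 4 with no filter, 18 with nuclear genes rescaled and 26 without the repeating cells, and ran from 6 without PA embryo 3 to 66 without IVF embryo 1. With only 4- and 8-cell embryos limma gave 0 and 0, and 266 and 77 at an unadjusted p under 0.05. The X value relative to autosomes was -2.33 with a pseudocount of 0.1, -0.72 with 5, -0.82 over genes detected in all 6 cells and -0.33 over genes of the 4-cell stage, and between -1.65 and -0.88 without a blastomere. The causes of these moves were not tested.

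With the embryo number as a replicate block, an alternative chosen after seeing the data, limma gave 130 and 140 genes at the 8-cell stage and 26 and 9 at the 4-cell stage. Same-numbered 4-cell embryos of the 2 methods deviated together with r of 0.127, -0.02 and 0.01, so they share only a number.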
